A study of Mus musculus with 12 samples.

Results

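Fxyd5 was described through the 13 exon bins of its gene model, of 925 bins of 58 gene models. An exon bin is a stretch of a gene that every isoform either includes whole or leaves out. The members were all rows that name Fxyd5 as their gene and all rows with the same gene model name, which came to 52 rows in each table before repeated rows were dropped. The gene was chosen because its bins differed in opposite directions between the backgrounds compared here, so those differences are given as a description, without a test.

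The study asked how well changes in splicing are detected when the number and source of the reads behind them are known. Its 12 samples were built on a computer from sequencing reads of D1, a mouse cell line, with 5 replicates in each sample. Reads of chosen transcripts, drawn from 1 of 2 libraries, were added to a common background. The number of reads searched for them, called source reads, was 20M, 40M or 80M (M, 1e6). The TruSeq library used poly(A) selection, fragmentation and random priming and started from 100 ng of RNA, and the NuGENv2 library started from 2 ng. The samples with the 100 ng background held reads of an unstranded TruSeq library made from 100 ng of total RNA, and those with the 1000 ng background held reads of the same kind of library made from 1000 ng. Samples are called 100 ng and 1000 ng mixtures after their background. All of them also received synthetic reads of other transcripts with even coverage. The Fxyd5 model names 3 transcripts. The labels list uc009ghp.2 for the 100 ng background and uc009gho.2 for the 1000 ng background, and list uc009ghq.2 for neither. The RNA amount of the background and the listed transcript thus change together. Differences between the backgrounds cannot be assigned to either. No label says that the replicates came from separate cultures, so the spread between them may be technical.

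Fxyd5, also called dysadherin, belongs to the FXYD family, small proteins that cross the membrane once and tune the activity of the sodium pump. The family is named after a short signature motif beside the membrane span. In carcinoma cells dysadherin is known for weakening E-cadherin contacts between cells and for raising the chemokine Ccl2. Of 16 genes looked for (the other FXYD proteins, the sodium pump subunits, Cdh1 and Ccl2), 0 were in the tables, so the rest of the pathway was not analysed here. Of 26 markers of dendritic cells, macrophages, T cells, B cells and epithelial cells, 0 were in the tables, and the identity of the D1 cells could not be checked.

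The gene (ENSMUSG00000009687.8) lies on chromosome 7 from 31817741 to 31827500 on the minus strand (NCBIM37, the assembly also called mm9), with 12 annotated GENCODE transcripts. Bins are numbered from low to high coordinates, so E013 is nearest the 5′ end of the transcript and E001 nearest the 3′ end. Matching inferred bin lengths to annotated exons placed 10 bins and left 3 unplaced, namely E001 (7 bases), E012 (361 bases) and E013 (233 bases). E011 at chr7:31826416-31826476 holds the start codon. E010, E009, E007, E006, E005 and E004 follow as coding exons whose lengths are multiples of 3. E002 at chr7:31817749-31818037 is the bin at the 3′ end and holds at most 77 coding bases. E003 at chr7:31818038-31820227 joins it to E004. Its 2190 bases are exonic in 1 of the 9 transcripts that span it, ENSMUST00000162733.1, and intronic in the others.

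These stretches of reference sequence show where the values below fall, each written 5′ to 3′ on the coding strand. The first is the start of the coding sequence, with the start codon in capitals (chr7:31826416-31826476). The second is E007 (chr7:31822840-31822947), the bin with the largest share of the added NuGENv2 reads. The others are E005 (chr7:31820405-31820434) and E004 (chr7:31820228-31820302), neighbouring exons that the added TruSeq reads covered very unequally.
E011: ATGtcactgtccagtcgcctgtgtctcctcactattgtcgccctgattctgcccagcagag
E007: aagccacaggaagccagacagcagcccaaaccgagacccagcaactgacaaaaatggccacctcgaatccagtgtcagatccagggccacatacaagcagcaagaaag
E005: attcgaatgagaacaaccccttctactacg
E004: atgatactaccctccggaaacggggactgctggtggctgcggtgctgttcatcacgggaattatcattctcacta

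The family signature motif is split by the join of E005 and E004, and E004 runs on into the membrane span. GC content was 43.3% in E005, 52.0% in E004, 53.7% in E007 and 55.7% in E011.

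A pair of shorter windows show how bins meet. In the first, 12 intron bases precede the 3-base bin E008 (capitals), which is followed by 12 bases of E007 (chr7:31822936-31822962). In the second, the last 15 bases of E004 are followed by the first 15 of E003, whose first 2 bases are in capitals (chr7:31820213-31820242).
E008 with its flanks: cttccaccaaagCAGaagccacaggaa
E004 to E003: ttatcattctcactaGTgagagtcgggcat

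E008 lies in 5 of the 11 transcripts that span it. The 3 intron bases before it, aag, and its own 3 bases, cag, both end in ag, the bases that close an intron, so the annotation holds 2 acceptor sites 3 bases apart. The first bases of E003 are gt, the bases that open an intron, and all but 1 of the transcripts that span E003 splice there.

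Values are whole reads recovered from the deposited coverage. For comparisons between replicates they were divided by a size factor, the column's median ratio to the average column of its table, and are called scaled reads. Each of the 6 tables (kit by source reads) was scaled on its own, so scaled levels are compared within a table. A replicate held 237258 to 492142 reads over all bins in 100 ng mixtures, without the mixture with TruSeq reads at 20M, and 347941 to 593002 in 1000 ng mixtures. The 100 ng mixture with TruSeq reads at 20M stood apart, with 1101798 to 1281559 reads per replicate, and every value from it is given separately. A read that touches several bins can be counted in each: the 3-base bin E008 held 558 to 1312 reads in the 1000 ng replicates with NuGENv2 reads at 20M. Sums over bins therefore can count a read more than once. The isoforms themselves were not separated, because they share bins.

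At 80M TruSeq source reads, the bins at the 3′ end of the coding region were lower in 100 ng mixtures and the bins at the 5′ end were higher. E004 held 1482, 1457, 1752, 1624 and 1449 scaled reads in replicates 1 to 5 of the 100 ng mixtures, against 3703, 3038, 3781, 3619 and 3892 in those of the 1000 ng mixtures. All 100 ng replicates lay below all 1000 ng replicates, and the means were 1553 ± 132 in 100 ng mixtures and 3607 ± 333 in 1000 ng mixtures (SD, n = 5 each). The log2 ratio, 100 ng over 1000 ng, was -1.21, the lowest of the 13 bins.

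E003, the mostly intronic stretch beside E004, differed in the same direction. It held 377, 413, 394, 364 and 372 scaled reads in the 100 ng replicates, against 847, 703, 897, 869 and 1004 in the 1000 ng replicates, with a log2 ratio of -1.16. The groups did not overlap. Per base E003 was the sparsest bin, with a mean of 0.175 scaled reads per base in 100 ng mixtures and 0.395 in 1000 ng mixtures, while E004 had 20.7 in 100 ng mixtures and 48.1 in 1000 ng mixtures.

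E002, the 3′ end bin, held the most reads and overlapped between the backgrounds. It held 5521, 5885, 3970, 4129 and 5723 scaled reads in the 100 ng replicates, against 6551, 4915, 6888, 6406 and 7269 in the 1000 ng replicates, with a log2 ratio of -0.35. Replicates 3 and 4 of the 100 ng mixtures and replicate 2 of the 1000 ng mixtures were the lowest of their groups.

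At the other end, E012 held 1226, 1261, 922, 935 and 1263 scaled reads in the 100 ng replicates, against 576, 590, 493, 514 and 554 in the 1000 ng replicates. The groups did not overlap, the means were 1121 ± 176 in 100 ng mixtures and 545 ± 41.1 in 1000 ng mixtures (SD, n = 5 each), and the log2 ratio of 1.03 was the highest of the 13 bins. E013 held 770, 787, 673, 671 and 708 scaled reads in the 100 ng replicates, against 442, 501, 431, 440 and 395 in the 1000 ng replicates, also without overlap, with a log2 ratio of 0.71. E001, a 7-base bin nearest the 3′ end, went in the direction of these 5′ bins. It held 26.2 to 39.6 scaled reads in the 100 ng replicates and 17.9 to 32.9 in the 1000 ng replicates, which overlapped. Its log2 ratio of 0.39 was the third highest and rests on at most 38 reads per replicate.

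Between these ends the differences were smaller. E007 held 2774, 2487, 2930, 2716 and 2481 scaled reads in the 100 ng replicates, against 2983, 3243, 2813, 2946 and 2822 in the 1000 ng replicates, with overlap and a log2 ratio of -0.15. E005, E006, E008, E009, E010 and E011 also overlapped, with log2 ratios from -0.20 in E009 to 0.13 in E011. Summed over bins, Fxyd5 held 20013 to 21412 scaled reads in the 100 ng replicates and 23958 to 25137 in the 1000 ng replicates, a log2 ratio of -0.25, which averages over bins that differed in opposite directions.

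**Figure D1:**
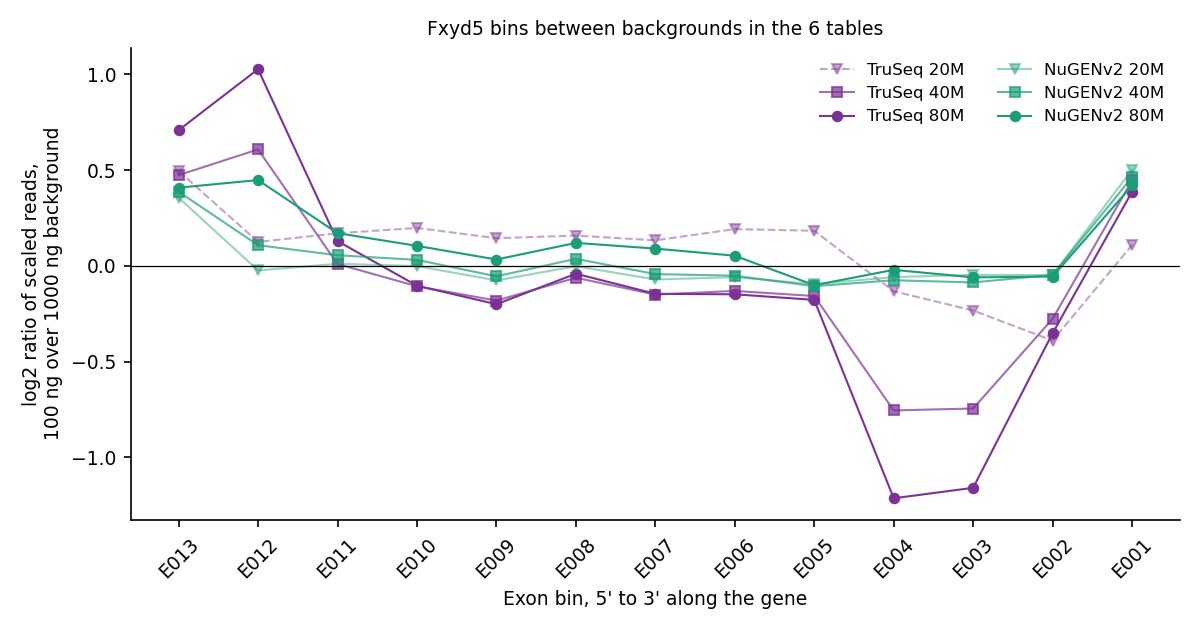
Log2 ratio of scaled reads, 100 ng over 1000 ng background, for each Fxyd5 bin from the 5′ end (left) to the 3′ end (right), with a line for each kit and number of source reads. With TruSeq reads at 80M, E012 reaches 1.03 and E004 reaches -1.21, and the bins between them stay near 0.

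Of the 13 bins at TruSeq 80M, 2 (E012 and E013) were without overlap and higher in 100 ng mixtures, where 12.3% of all 925 bins were so, and 2 (E003 and E004) were without overlap and higher in 1000 ng mixtures, where 5.95% of all bins were so. The median log2 ratio was -0.15 over the 13 bins and -0.04 over all bins. Since the gene was chosen on this contrast, nothing is read from these counts. With scaling to total reads in bins, E013 overlapped, which left 1 bin (E012) higher in 100 ng mixtures. On the values as deposited, where the fifth 100 ng column is in another unit, E001, E012 and E013 turned to log2 ratios of -0.60, -0.090 and -0.40.

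Shares of the reads of Fxyd5 need no size factor and gave the same bins, with E011 added. E004 held 6.92%, 6.93%, 8.41%, 8.11% and 7.10% of the Fxyd5 reads in the 100 ng replicates, against 14.7%, 12.7%, 15.3%, 14.6% and 15.5% in the 1000 ng replicates. E012 held 5.72%, 5.99%, 4.43%, 4.67% and 6.19% in the 100 ng replicates, against 2.29%, 2.46%, 1.99%, 2.08% and 2.21% in the 1000 ng replicates. Replicates of a background did not reach into the range of the other in either bin. E011, chosen after its values were seen, held 7.42 ± 0.191% in 100 ng mixtures and 5.71 ± 0.521% in 1000 ng mixtures (SD, n = 5 each), without overlap.

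**Figure D2:**
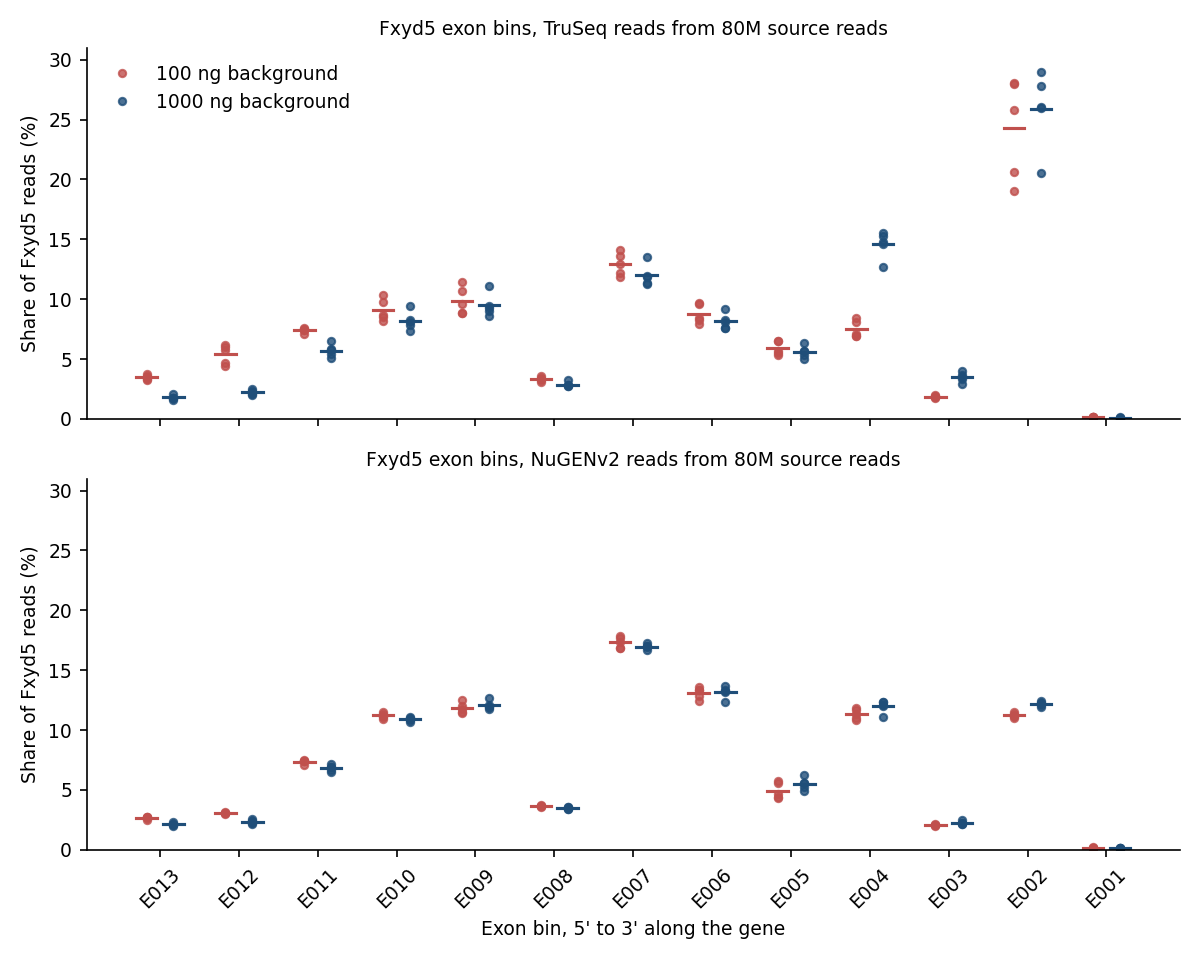
Share of the Fxyd5 reads in each bin (%), from the 5′ end (left) to the 3′ end (right), at 80M source reads of TruSeq (top) and NuGENv2 (bottom). Points are the 5 replicates of each background and lines their means: with TruSeq reads the E004 points of the 100 ng mixtures lie at 6.92 to 8.41% and those of the 1000 ng mixtures at 12.7 to 15.5%.

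With fewer TruSeq reads the same bins differed less. At 40M, E004 averaged 1542 ± 123 scaled reads in 100 ng mixtures and 2599 ± 127 in 1000 ng mixtures (SD, n = 5 each), a log2 ratio of -0.76. E003 had a log2 ratio of -0.75, E012 of 0.61 and E013 of 0.47, and E002 of -0.28. E003 and E004 were without overlap and higher in 1000 ng mixtures, as were 4.86% of all bins, and E012 and E013 were without overlap and higher in 100 ng mixtures, as were 10.2% of all bins. With scaling to total reads in bins, 0 bins were without overlap at 40M in either direction, while the log2 ratios kept their signs, at -0.82 for E004 and 0.55 for E012.

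With NuGENv2 reads at 80M the log2 ratios of E002, E003, E004, E012 and E013 were smaller in size than with TruSeq reads. Those of E001, E008 and E011 were larger, at 0.42, 0.12 and 0.17 with NuGENv2 and 0.39, -0.04 and 0.13 with TruSeq reads. At 80M, E004 held 3332, 3466, 2690, 2700 and 3440 scaled reads in the 100 ng replicates, against 3254, 2696, 3291, 3167 and 3395 in the 1000 ng replicates, with a log2 ratio of -0.02. E012 held 905, 912, 752, 737 and 924 scaled reads in the 100 ng replicates, against 652, 617, 578, 587 and 654 in the 1000 ng replicates, with a log2 ratio of 0.45. E004 overlapped between the backgrounds and E012 did not. As a share of the Fxyd5 reads, E002 was without overlap too, at 11.01 to 11.48% in 100 ng mixtures and 11.95 to 12.39% in 1000 ng mixtures.

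Of the 13 bins, only E013 was without overlap in all 6 tables, higher in 100 ng mixtures each time, but this depended on the scaling. The tables share the reads of each background, so the 6 tables are not independent. The share of all bins without overlap in all 6 tables was not counted. With total reads in bins E013 overlapped in every table but TruSeq 20M, and with size factors from bins unchanged across tables it overlapped at NuGENv2 20M. With NuGENv2 reads at 20M it held 596, 609, 567, 554 and 535 scaled reads in the 100 ng replicates, against 451, 477, 445, 446 and 416 in the 1000 ng replicates, without overlap. The log2 ratio was 0.36 at 20M, 0.39 at 40M and 0.41 at 80M of NuGENv2 reads, and 0.49, 0.47 and 0.71 at the same depths of TruSeq reads. E012 had log2 ratios of -0.02, 0.11 and 0.45 at 20M, 40M and 80M of NuGENv2 reads, so its difference, unlike that of E013, was near 0 at the lowest depth.

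Without overlap between the backgrounds and higher in 100 ng mixtures were 1 bin (E013) at NuGENv2 20M, where 3.78% of all bins were so, the same bin at 40M, against 5.51% of all bins, and 2 bins (E012 and E013) at 80M, against 7.46%. Higher in 1000 ng mixtures were 0 bins at 20M, 40M and 80M of NuGENv2 reads, against 2.16%, 2.81% and 4.97% of all bins. With scaling to total reads in bins, 0 bins were higher in 100 ng mixtures at these depths, and with unchanged bins 0 at 20M.

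**Figure D3:**
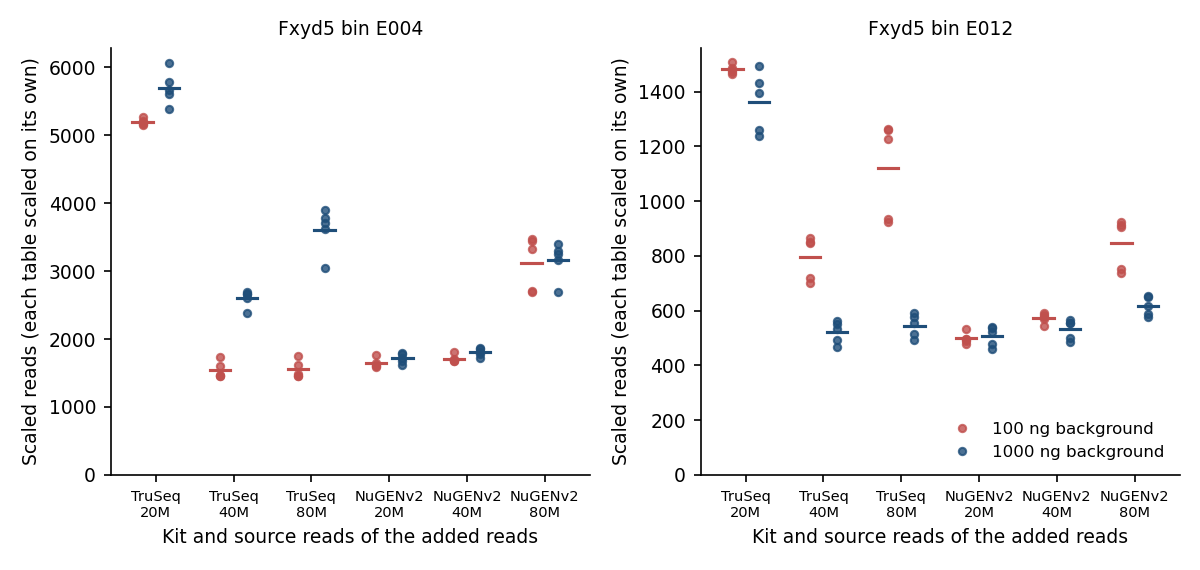
Scaled reads of E004 (left) and E012 (right) for each kit and number of source reads. Points are the 5 replicates of each background and lines their means, and each table was scaled on its own; in the TruSeq 80M table E004 averages 1553 scaled reads in 100 ng mixtures and 3607 in 1000 ng mixtures, and E012 averages 1121 in 100 ng mixtures and 545 in 1000 ng mixtures.

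The TruSeq table at 20M carries the sample that stood apart. In it, Fxyd5 held 119439 to 134929 reads per replicate in 100 ng mixtures and 15819 to 36624 in 1000 ng mixtures. Of the 13 bins, 8 (E005 to E011 and E013) were without overlap and higher in 100 ng mixtures, as were 25.7% of all bins, and 3 (E002, E003 and E004) were without overlap and higher in 1000 ng mixtures, as were 25.2% of all bins. E004 had a log2 ratio of -0.13 and E012 of 0.12 there, and the bins from E005 to E010 lay between 0.13 and 0.20. The calls and signs at the 3′ end depended on the scaling. With total reads in bins, 13 bins were higher in 100 ng mixtures and 0 in 1000 ng mixtures, and E004 had a log2 ratio of 0.93. With unchanged bins the counts were 11 and 0, and E004 had a log2 ratio of 0.27. The share of all bins under these scalings was not counted, so nothing is read from these counts.

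The excess over the NuGENv2 sample of the same depth in 100 ng mixtures was 108846 reads over the Fxyd5 bins. It was the same in all 5 replicates, the fifth with its library total fitted to equal gains. It was spread over the bins nearly as the reads already there. E007 took 15.4% of the excess, against 15.7 ± 0.368% (SD, n = 5) of the Fxyd5 reads at NuGENv2 20M. E002 took 11.6%, against 11.1 ± 0.298%, and E012 took 2.82%, against 2.88 ± 0.0774%. E005, chosen after its values were seen, differed most, with 8.05%, against 7.28 ± 0.177%. From 20M to 40M of TruSeq reads the Fxyd5 sum in 100 ng mixtures fell by 107822 reads, with all 13 bins lower at 40M.

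Subtracting a table from the next depth of the same kit and background leaves the reads by which they differ, taken here as the added reads, since the background reads cancel. These gains come from the same tables that the gene was chosen on and are a description too. In all 925 bins, the gain was the same in all 5 replicates, so the added reads have a count but no replicates, and the intervals below (95% Clopper-Pearson, of the share of the total gain) cover counting error only. Because a fixed number of reads enters replicates of different depth, the SDs above say nothing of how the added reads vary.

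From 40M to 80M of TruSeq source reads, Fxyd5 gained 2293 reads in 100 ng mixtures and 4179 in 1000 ng mixtures. E002 gained 1439 reads in 100 ng mixtures, 62.8% of the gain (60.7 to 64.7%), and 2482 in 1000 ng mixtures, 59.4% (57.9 to 60.9%). This bin at the 3′ end thus took most of the added TruSeq reads in both backgrounds. The intervals met only between 60.7 and 60.9%, which does not show that the shares were equal. In reads, the gain in 1000 ng mixtures was 1.72 times that in 100 ng mixtures.

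The neighbouring coding exon did not gain alike. E004 gained 18 reads in 100 ng mixtures, 0.785% of the gain (0.466 to 1.24%), and 1075 in 1000 ng mixtures, 25.7% (24.4 to 27.1%). E003 gained 48 reads in 100 ng mixtures and 332 in 1000 ng mixtures. E005, which the annotation joins to E004, gained 2 reads in each background.

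The 5′ bins gained more in 100 ng mixtures. E012 gained 283 reads there, 12.3% of the gain (11.02 to 13.8%), and 22 in 1000 ng mixtures, 0.526% (0.330 to 0.796%). E013 gained 104 and E011 gained 141 reads in 100 ng mixtures, against 3 and 25 in 1000 ng mixtures. Thus E011, E012 and E013 on the 5′ side and E003 and E004 on the 3′ side gained in opposite directions.

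The bins between the ends gained few TruSeq reads, and 5 bins gained exactly as many in both backgrounds: 12 in E001, 2 in E005, 125 in E007, 63 in E008 and 7 in E009. E005 to E010, 6 bins, together took 248 reads, 10.8% of the gain, in 100 ng mixtures and 228 reads, 5.46%, in 1000 ng mixtures.

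**Figure D4:**
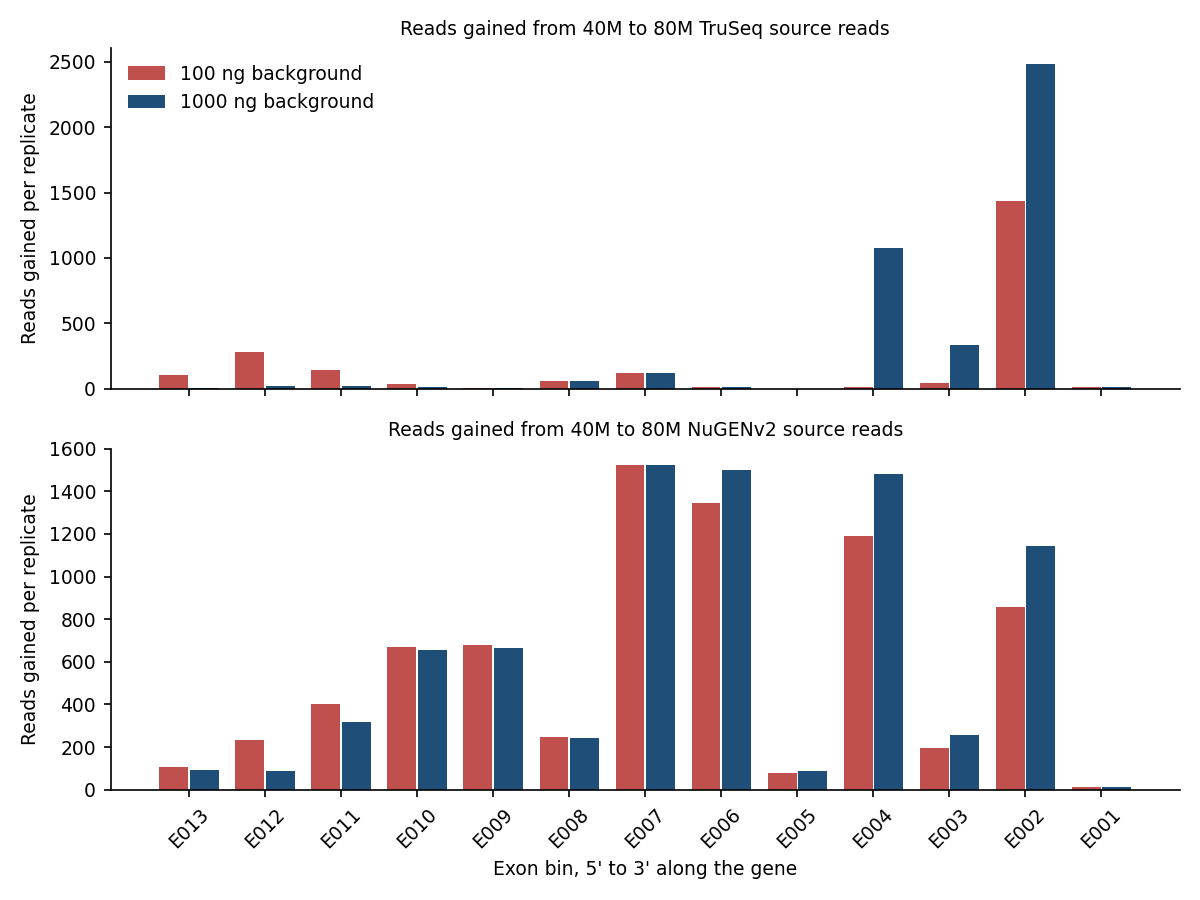
Reads gained per replicate by each Fxyd5 bin from 40M to 80M source reads of TruSeq (top) and NuGENv2 (bottom), from the 5′ end (left) to the 3′ end (right). Bars are counts that were identical in all 5 replicates, the fifth of the 100 ng background with its library total fitted to equal gains. TruSeq reads fall mostly in E002, with 1075 in E004 in 1000 ng mixtures and 18 in 100 ng mixtures, and NuGENv2 reads fall mostly from E010 to E002.

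The NuGENv2 reads covered the middle of the gene instead. From 40M to 80M, Fxyd5 gained 7543 NuGENv2 reads in 100 ng mixtures and 8070 in 1000 ng mixtures. E005 to E010 took 4543 of them, 60.2%, in 100 ng mixtures and 4679, 58.0%, in 1000 ng mixtures. E007 gained 1524 reads in each background, 20.2% (19.3 to 21.1%) of the gain in 100 ng mixtures and 18.9% (18.0 to 19.8%) in 1000 ng mixtures, the largest share of any bin in both. Per base it gained 14.1 reads in each background, fewer than E008, E006 and E004.

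The added NuGENv2 reads differed between the backgrounds in E004, E012 and E002 as well. E004 gained 1192 reads in 100 ng mixtures, 15.8% (14.99 to 16.6%), and 1481 in 1000 ng mixtures, 18.4% (17.5 to 19.2%). E012 gained 232 reads in 100 ng mixtures, 3.08% (2.70 to 3.49%), and 90 in 1000 ng mixtures, 1.12% (0.898 to 1.37%). E002 gained 855 reads, 11.3% (10.6 to 12.1%), in 100 ng mixtures and 1143, 14.2% (13.4 to 14.9%), in 1000 ng mixtures. Counted in reads, the directions in these 3 bins were those of the TruSeq reads, with smaller differences.

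At equal source reads the kits differed in number as well as in position. From 40M to 80M, TruSeq over NuGENv2 gains had a ratio of 0.304 in 100 ng mixtures and 0.518 in 1000 ng mixtures, where it was 1.85 from 20M to 40M. At 80M, the difference in Fxyd5 reads, TruSeq minus NuGENv2, was -5382 in each 100 ng replicate and -2195 in each 1000 ng replicate. E002 went the other way, with 1713 more TruSeq than NuGENv2 reads in 100 ng mixtures and 3416 more in 1000 ng mixtures.

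In E007 that difference was -1718 reads in 100 ng mixtures and also in 1000 ng mixtures at 80M. In E004 it was -1295 in 100 ng mixtures and 428 in 1000 ng mixtures, so its sign differed between the backgrounds. In E012 it was 248 in 100 ng mixtures and -90 in 1000 ng mixtures. TruSeq was lower than NuGENv2 in 11 of 13 bins in 100 ng mixtures and in 10 of 13 in 1000 ng mixtures.

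At 40M the order of the kits was not the same. Summed over the bins, TruSeq minus NuGENv2 was -132 reads in 100 ng mixtures and 1696 reads in 1000 ng mixtures.

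The gain per step depended on the kit. In the 1000 ng background, TruSeq reads of Fxyd5 rose by 2125 from 20M to 40M and by 4179 from 40M to 80M, a ratio of 1.97 for source reads that grew by 20M and then by 40M. NuGENv2 reads rose by 1146 and then by 8070, a ratio of 7.04, and in 100 ng mixtures by 1156 and then by 7543, a ratio of 6.53.

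The added NuGENv2 reads also differed in position between these steps. In the 1000 ng background E004 gained 93 reads from 20M to 40M, 8.12% of the gain (6.60 to 9.85%), and 1481 from 40M to 80M, 18.4% (17.5 to 19.2%). E006 gained 108 and then 1500, 9.42% (7.79 to 11.3%) and 18.6% (17.7 to 19.5%). E010 went the other way, with 13.7% (11.8 to 15.8%) and then 8.14% (7.55 to 8.76%).

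In the 100 ng background the direction in E004 was the same: it gained 61 reads and then 1192, with shares of 5.28% (4.06 to 6.73%) and 15.8% (14.99 to 16.6%). For TruSeq reads in 1000 ng mixtures the intervals of the 2 steps overlapped in E004, with 24.4% (22.6 to 26.3%) and then 25.7% (24.4 to 27.1%), and in E002, with 59.0% (56.9 to 61.1%) and then 59.4% (57.9 to 60.9%). They did not overlap in E006, with 23 reads, 1.08% (0.687 to 1.62%), and then 18 reads, 0.431% (0.255 to 0.680%). E006 and E010 were chosen after their values were seen.

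At TruSeq 80M the sum over the bins differed less between the backgrounds than E004 or E012 did. The log2 ratio of summed scaled reads, 100 ng over 1000 ng, was 0.06 at 20M, -0.19 at 40M and -0.25 at 80M of TruSeq reads, and -0.04, -0.02 and 0.06 at the same depths of NuGENv2 reads. The size of the TruSeq ratios depended on the scaling: with total reads in bins they were 1.12, -0.25 and -0.38. At NuGENv2 80M the sums were 24562 to 29729 in the 100 ng replicates and 24248 to 27522 in the 1000 ng replicates, which overlapped. At NuGENv2 40M they were 18196 to 19130 in 100 ng mixtures and 18357 to 19478 in 1000 ng mixtures, which overlapped too. At NuGENv2 20M they were 16572 to 18276 in 100 ng mixtures and 17061 to 18666 in 1000 ng mixtures, again with overlap. With TruSeq reads at 40M the sums did not overlap, at 17389 to 19111 in 100 ng mixtures and 20335 to 21092 in 1000 ng mixtures. At TruSeq 80M they did not overlap either, at 20013 to 21412 in 100 ng mixtures and 23958 to 25137 in 1000 ng mixtures. At TruSeq 20M they overlapped. The lack of overlap depended on the scaling: as shares of all reads in the bins, replicates of the backgrounds overlapped at TruSeq 40M and 80M. These shares were 4.46 ± 1.28% in 100 ng mixtures and 5.24 ± 1.29% in 1000 ng mixtures at TruSeq 40M (SD, n = 5 each). How many gene models had sums without overlap was not counted, so nothing is read from the sums that did not overlap.

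As a share of all reads in the bins, Fxyd5 made up 4.58 ± 1.17% in 100 ng mixtures and 5.90 ± 1.25% in 1000 ng mixtures with TruSeq reads at 80M, and 6.75 ± 1.39% in 100 ng mixtures and 6.52 ± 1.30% in 1000 ng mixtures with NuGENv2 reads at 80M (SD, n = 5 each). Fxyd5 reads per replicate ran from 13910 to 29400 in 100 ng mixtures and from 22123 to 42928 in 1000 ng mixtures at TruSeq 80M.

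The gene models whose summed level ran most like that of Fxyd5 over the 12 sample means were Elp2 (Pearson r = 0.96), Saal1 (r = 0.93) and Copa (r = 0.93). Samples of a background share its reads. Over the 10 samples outside the TruSeq table at 20M, r was 0.76 for Elp2, 0.44 for Saal1 and 0.34 for Copa.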

How the data were processed

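RNA sequencing reads of D1 cells were analysed in 12 samples of 5 replicates each. The deposited values were a coverage signal per exon bin, although the tables are named for another unit. In 9 of 10 columns per table the signal equalled a whole number of reads over the bin length less 1 base, and in the fifth column of the 100 ng background it was divided further by the library total in units of 1e6 reads (16022256 reads at NuGENv2 20M and 200944658 at TruSeq 20M). Bin lengths and this total were inferred from the values. The total was fitted by taking the fifth column to have gained as many reads as the first between tables. Multiplying back gave whole reads for 100.0% of 55500 values, within 0.001 reads for the 9 columns, whose lengths were found so, and within 0.05 reads for the fifth. Per the submitters' processing notes STAR, Cuffdiff and mm9 were used, with the counting of reads over bins not given in the sources used here. Of 1744 rows per table, 818 were repeats; 1 bin without finite values was left out.

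Reads were divided by median-of-ratios size factors, and log2 ratios are differences of mean log2(scaled reads + 1), which understates changes of low values. Bins were placed with GENCODE vM1 exons on NCBIM37, from which the sequences were read. No test was run, since the gene was chosen on these values. Bins with full values were the 3 highest and 3 lowest log2 ratios at TruSeq 80M and those with the largest share of gained reads; gene models were the 3 with the highest r. The members and lists were chosen with earlier results of these data known. Python 3.11.15, numpy 2.4.6, pandas 2.3.3, scipy 1.17.1 and matplotlib 3.10.9 were used, and the recovery of lengths and size factors was tested on simulated data. Alternatives were the column scaling, the pseudocount (0.1 in place of 1), a minimum mean level of 1, each replicate left out, replicate numbers as pairs, the depth step and, added after the data were seen, shares in place of levels.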

Additional observations from a re-analysis of the deposited data

How the results depend on the processing

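The log2 ratios of the Fxyd5 sum, in the order NuGENv2 20M, 40M and 80M and TruSeq 20M, 40M and 80M, were -1.24, -1.21, -1.11, 1.03, -1.33 and -1.38 on the values as deposited and -0.31, -0.29, -0.23, 2.58, -0.41 and -0.47 on those values without the fifth 100 ng column, which reversed the sign at NuGENv2 80M. With scaling to total reads in bins the TruSeq ratios were 1.12, -0.25 and -0.38, and with size factors from bins unchanged across tables they were 0.46, -0.13 and -0.17. On the values as deposited E001, E012 and E013 at TruSeq 80M turned to -0.60, -0.090 and -0.40; the fifth column there is in another unit, and without it E012 was 0.76 and E013 0.49. Bins without overlap and higher in 100 ng mixtures numbered 0 of 13 throughout as deposited. Without the fifth column they numbered 13 at TruSeq 20M and 0 elsewhere, and with scaling to total reads 13 at TruSeq 20M, 1 at TruSeq 80M and 0 in the others. With unchanged bins they numbered 0 at NuGENv2 20M. Those higher in 1000 ng mixtures numbered 0 at TruSeq 20M under each of these scalings, and at TruSeq 40M 1 as deposited, with and without the fifth column, and 0 with total reads. By shares, 2 bins were higher in 100 ng mixtures at NuGENv2 40M and 1 in 1000 ng mixtures at NuGENv2 80M. The share of all bins was counted only with median-of-ratios size factors, so nothing is read from these counts. Apart from what the other unit of the fifth column does, the cause of these shifts was not tested.

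Leaving out each replicate in turn moved the ratio of the sum to between -0.06 and -0.02 at NuGENv2 20M, -0.03 and -0.01 at 40M, and 0.03 and 0.10 at 80M, and to between 0.05 and 0.08 at TruSeq 20M, -0.20 and -0.18 at 40M, and -0.27 and -0.24 at 80M. Bins without overlap and higher in 100 ng mixtures then numbered 1 to 2 at NuGENv2 20M and 40M and 2 to 3 at 80M, and 7 to 9, 2 to 3 and 2 to 2 with TruSeq reads at 20M, 40M and 80M. Those higher in 1000 ng mixtures numbered 0 to 0, 0 to 1 and 0 to 0 with NuGENv2 reads and 3 to 3, 2 to 4 and 2 to 4 with TruSeq reads. The share of all bins was not counted with replicates left out, so nothing is read from these counts. Taking replicate numbers as pairs (a replicate block) gave the same ratios of the sum, -0.04, -0.02 and 0.06 with NuGENv2 and 0.06, -0.19 and -0.25 with TruSeq reads, by arithmetic.

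The ratio of TruSeq over NuGENv2 gains in 1000 ng mixtures was 1.85 from 20M to 40M, so TruSeq gained more there, and 0.684 from 20M to 80M; with TruSeq reads in 100 ng mixtures neither step gave a gain. Per base, E002 took 14.9% of the TruSeq gain in 100 ng mixtures and 17.9% in 1000 ng mixtures, and E007 took 8.56% of the NuGENv2 gain in 100 ng mixtures and 8.37% in 1000 ng mixtures; E007 took 19.2% from 20M to 40M in 100 ng mixtures. Shares of gains under about 20 reads have wide intervals. The added reads of a kit come from 1 library, so kit, RNA amount and library cannot be told apart.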
